A study of Mus musculus with 9 samples.

Results

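Of 69547 long noncoding transcripts counted in mouse spinal cord, 203 were raised in every library made from injured cord. They were chosen by a rule on their own values. The lowest of the 6 injured libraries had to reach at least 2 times the highest of the 3 control libraries, and each of the 6 had to hold a count of 10 or more. The values are CPM, a transcript's count divided by the library's total over all listed transcripts and scaled to 1000000. The count minimum alone was met by 17190 transcripts, of which the 203 made up 1.18%. Because injured and control libraries were compared to choose them, their differences from control are described here without a test. The rule treated libraries of injury alone and of injury with hyperbaric oxygen alike, and the comparison between these 2 groups was tested. Each oxygen library still had to pass the rule. A transcript that oxygen brought back to control levels could therefore not be a member.

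The cords came from wild type C57BL/6 mice of 7-9 weeks, and total RNA was sequenced on day 7. Control cord had no injury according to the sample labels, while the series design calls that group sham. Injury cord came from mice with a spinal cord injury, and HBO cord from injured mice given HBO, hyperbaric oxygen, in which an animal breathes oxygen at raised pressure. Each group had 3 libraries, and nothing states that these came from separate animals, so p-values measure the spread between libraries, which may be technical.

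A long noncoding RNA is a transcript that is not translated into a protein, and many are spliced and polyadenylated like messenger RNAs. Some are hosts of microRNAs, short RNAs that pair through their seed, bases 2 to 8, with target messenger RNAs. After a spinal cord injury, monocyte-derived macrophages enter the lesion, and fibroblasts from the meninges and vessel walls lay down a collagen scar. In bulk tissue, more cells of a type and more RNA per cell cannot be told apart, and the strand handling of the counts is not given in the sources used here. Reads of a listed transcript and of a messenger RNA that overlaps it, on either strand, therefore cannot be told apart.

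Both members with an annotated microRNA hairpin inside their span, introns included, are shown first. The mature sequences are what these RNAs are best known to yield. These members were 2 of 203 (0.985%), beside 98 of the 17190 transcripts at the count minimum by the same criterion (0.570%). Dnm3os holds miR-199a and miR-214, and H19 holds miR-675. The seed is in capitals, and sequences are from RefSeq on GRCm38.p6.
miR-199a-5p in Dnm3os: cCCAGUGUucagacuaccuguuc
miR-199a-3p in Dnm3os: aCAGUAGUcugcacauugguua
miR-214-5p in Dnm3os: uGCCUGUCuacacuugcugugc
miR-214-3p in Dnm3os: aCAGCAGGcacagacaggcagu
miR-675-5p in H19: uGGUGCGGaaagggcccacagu
miR-675-3p in H19: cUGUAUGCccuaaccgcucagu
The 6 mature microRNAs have 6 different seeds. The counts are of the long transcripts, and mature microRNAs were not analysed here.

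The 3' ends of the members with an Ensembl identifier differed with position. Of 18 such members, 8 (44.4%) had the polyadenylation signal AATAAA or ATTAAA in their last 50 bases, beside 476 of 1532 Ensembl transcripts at the count minimum with a GENCODE sequence (31.1%). Of the 18, 10 lay inside an intron of a coding gene on that gene's own strand, and 1 of these 10 had the signal. Among the 8 others, 7 had it. Over all 881 Ensembl transcripts at the minimum in a same-strand intron, 152 (17.3%) had the signal, against 186 of 392 (47.4%) outside coding genes. Ends of the named noncoding genes and of 2 intronic members inside collagen genes follow, with the signal in capitals, from GENCODE M21 transcripts.
H19: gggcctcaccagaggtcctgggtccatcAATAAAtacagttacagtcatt
Dnm3os: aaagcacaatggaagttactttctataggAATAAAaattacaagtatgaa
Snhg18: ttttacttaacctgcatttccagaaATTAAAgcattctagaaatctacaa
AI506816: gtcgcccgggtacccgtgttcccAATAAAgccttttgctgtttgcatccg
RP23-380L19.3: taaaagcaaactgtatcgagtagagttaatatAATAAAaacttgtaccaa
RP23-56M2.7, inside Col1a2: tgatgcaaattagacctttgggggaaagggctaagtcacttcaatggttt
Gm38211, inside Col5a2: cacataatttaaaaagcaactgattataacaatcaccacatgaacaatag
The 5 genes that stand outside coding genes or opposite to one ended in a signal, and the 2 ends inside collagen introns held none in these 50 bases.

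Together the members took between 0.103% and 0.157% of listed counts in the control libraries. In injury the share was 0.913%, 0.681% and 0.646% in replicates 1 to 3, and in HBO it was 0.549%, 0.941% and 0.759%. The median member stood at 2.28, 2.16 and 3.14 CPM in control, at 20.01, 17.4 and 15.5 CPM in injury, and at 13.5, 22.5 and 17.0 CPM in HBO. Library totals ran from 2295433 counts in HBO replicate 3 to 3148744 in injury replicate 1. In a principal component analysis of all tested transcripts, the first component (29.4% of variance) held the control libraries apart from the other 6, and the second (12.2%) held HBO replicate 3 apart from the other 8.

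**Figure D1:**
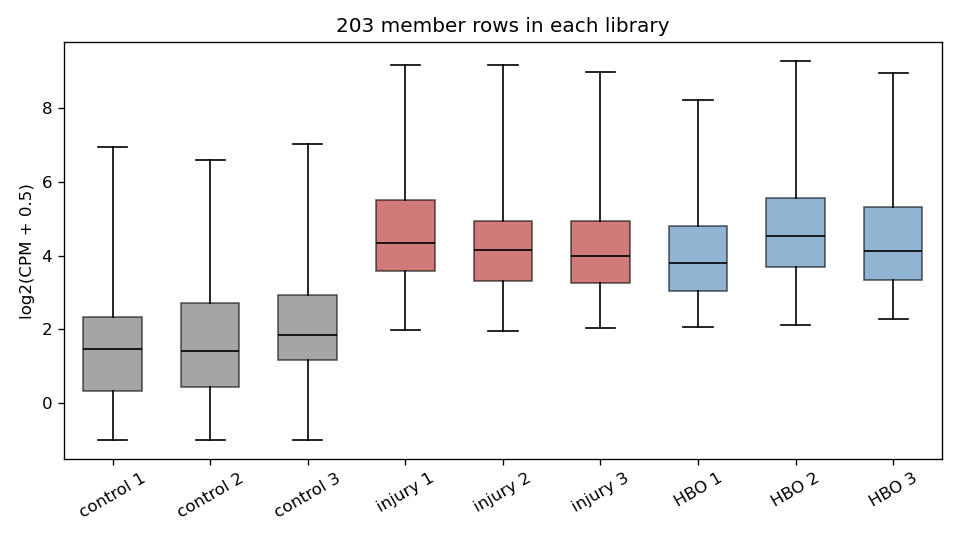
Boxes show the 203 member transcripts in each of the 9 libraries as log2(CPM + 0.5), with the median as a line and whiskers at the lowest and highest member. Control medians lie at 2.16 to 3.14 CPM, and medians of the injury and HBO libraries at 13.5 to 22.5 CPM. The separation of control from the other groups is what the membership rule asked for.

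The ratio of the lowest injured to the highest control value had a median of 2.71 and ran from 2.02 to 254 among members with any control count. Among these it was 3 or more in 76 members, 5 or more in 27 and 10 or more in 11, and 2 members had 0 counts in every control and so no ratio. In 20 members the highest control rested on 1 to 3 counts, and these included 9 of the 11 with a ratio of 10 or more. The members closest above the threshold lay in Dlc1, in Svil and over Gcnt1, all at 2.02. The transcripts closest below it lay over Gas2l3 at 1.998, in Tgfbr2 at 1.99 and in Rin3 at 1.98, so the edge of the set is not a gap in the values.

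The named noncoding genes were H19, Dnm3os, Snhg18 and AI506816. H19 (chr7:142575529-142578143, GRCm38) is an imprinted RNA, expressed from the maternal chromosome and abundant in fetal mesoderm. It stood at 25.4, 16 and 30.3 CPM in control, at 440, 292 and 142 CPM in injury, and at 171, 577 and 446 CPM in HBO. Injury replicate 3 and HBO replicate 1 were the low libraries, and both still lay above every control. In HBO against injury its log2 fold change was 0.28 (SE 0.53, adjusted p = 0.99998, edgeR quasi-likelihood fit over all transcripts, Benjamini-Hochberg).

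Dnm3os (chr1:162217623-162225550) runs opposite to Dnm3 inside one of its introns and is known from mouse embryos as a transcript of mesenchyme. It stood at 1.52, 0 and 2.09 CPM in control, at 70.2, 76.3 and 43.8 CPM in injury, and at 57.4, 105 and 63.6 CPM in HBO. The ratio of its lowest injured to its highest control library was 20.9. The log2 fold change of HBO against injury was 0.12 (SE 0.47, adjusted p = 0.99998), smaller than its error.

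Snhg18 (chr15:32240565-32244662), a small nucleolar RNA host gene, stood at 5.70, 7.35 and 10.5 CPM in control, at 35.6, 39.9 and 24.6 CPM in injury, and at 26.7, 39.6 and 37.9 CPM in HBO. Its injury and HBO ranges overlapped. AI506816 (chr5:23700649-23712666), a spliced noncoding gene, stood at 54.3, 76.1 and 99.7 CPM in control, at 392, 299 and 257 CPM in injury, and at 212, 248 and 263 CPM in HBO. Its injury libraries lay mostly above its HBO libraries, with a log2 fold change of -0.54 (SE 0.27, adjusted p = 0.99998).

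RP23-380L19.3 (chr6:5216258-5220486), called Gm44250 in GENCODE, lies 366 bases from Pon3, a paraoxonase gene, and on the same strand. Whether its reads are separate from transcription of Pon3 was not tested. RP23-380L19.3 had a single count over the control libraries, at 0.432 CPM in replicate 2. In injury it stood at 173, 114 and 135 CPM and in HBO at 110, 175 and 147 CPM. The ratio of the lowest injured to that control library was 254, with an exact counting interval from 45.2 to 10062. Its coefficient of variation over the 6 injured libraries, 19.7%, was below the member median of 29.2%.

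**Figure D2:**
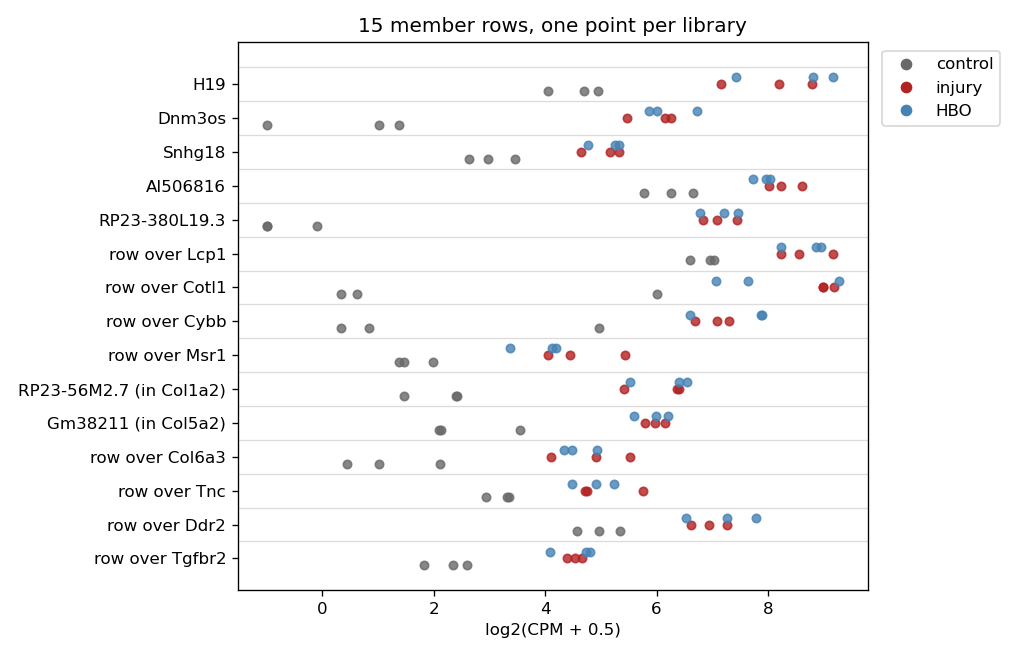
Points are single libraries of 15 members on the scale log2(CPM + 0.5), with control in grey, injury in red and HBO in blue. Every control point of a member lies left of its injured points, as the rule requires, and the red and blue ranges of each member overlap.

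Members over genes of leukocytes were the largest of the groups described by coding gene. These groupings were made after the members were seen, and 23 members lay over 17 such genes, 16 in introns and 7 over exons. These genes held 38 transcripts at the count minimum, and each was picked because it held a member, so the share says nothing of leukocyte genes at large. Their summed level was 244 to 310 CPM in control, 1391 to 1814 CPM in injury and 1020 to 1960 CPM in HBO. Lcp1 encodes L-plastin, which bundles actin in leukocytes. The member over its untranslated region (NONMMUT021642.2) stood at 125, 96.0 and 131 CPM in control, at 574, 378 and 300 CPM in injury, and at 302, 464 and 494 CPM in HBO.

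Cotl1 encodes coactosin-like protein, which binds actin filaments and 5-lipoxygenase. The member over its coding exons (NONMMUT067418.2) stood at 0.759, 63.6 and 1.05 CPM in control, at 506, 579 and 508 CPM in injury, and at 199, 621 and 133 CPM in HBO. Control replicate 2 lay above the other controls, HBO replicate 2 lay with the injury libraries, and HBO replicates 1 and 3 lay below them. The log2 fold change of HBO against injury, -0.82, had an SE of 1.20. Cybb encodes the catalytic subunit of the phagocyte NADPH oxidase. The member over it (NONMMUT071806.2) stood at 0.759, 1.30 and 30.7 CPM in control, at 157, 135 and 103 CPM in injury, and at 96.2, 234 and 237 CPM in HBO. A member in Cyba (NONMMUT067520.2), the other membrane subunit of that oxidase, stood at 13.7, 16.4 and 7.67 CPM in control, at 42.6, 53.5 and 41.6 CPM in injury, and at 36.2, 55.6 and 42.3 CPM in HBO.

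For both oxidase members the HBO and injury ranges overlapped. Msr1 encodes the macrophage scavenger receptor that takes up modified lipoproteins. The member over it (NONMMUT065343.2) stood at 2.28, 3.46 and 2.09 CPM in control, at 42.9, 16 and 21.3 CPM in injury, and at 9.88, 17.9 and 17.0 CPM in HBO. Its log2 fold change of HBO against injury was -0.9998 (SE 0.40, unadjusted p = 0.0349, adjusted p = 0.99998), and injury replicate 1 was far above the other 5 libraries.

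Runx1 and Fli1, transcription factors of blood and vessel cells, each held 2 intronic members. The Runx1 members had ratios of lowest injured to highest control of 3.11 and 2.84, and the one other transcript in the gene at the count minimum reached 1.44. The Fli1 members, Gm37082 and Gm37474, had ratios of 2.23 and 2.07, and the other 4 of 6 transcripts at the minimum in Fli1 ran from 0.90 to 1.91. Dock2, a Rac activator of leukocyte migration, held 2 members with ratios of 2.08 and 2.26 among 7 transcripts at the minimum, and the other 5 ran from 1.16 to 1.40. Both Dock2 members also lie in Fam196b, a coding gene on the opposite strand. A member in Atp6v0d2, a subunit of the vacuolar proton pump of osteoclasts and macrophages, ran from 0 to 1.39 CPM in control and from 5.12 to 9.15 CPM in the injured libraries. Single members also lay over or in Nckap1l, Cd48, Cyth4, P2ry6, Elf4 and Mndal, and pairs in Il10rb and Ptk2b, with ratios from 2.03 to 2.42. The Il10rb pair also lies in Gm21970, a coding gene on the same strand. The other 3 of 5 transcripts at the minimum in Ptk2b ran from 0.86 to 1.77.

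Members over genes of extracellular matrix and adhesion numbered 13, over 12 genes, with 7 in introns and 6 over exons, among 23 transcripts at the minimum over these genes. Their sum was 66.5 to 106 CPM in control, 401 to 670 CPM in injury and 382 to 741 CPM in HBO. RP23-56M2.7 (chr6:4506087-4507878) lies in an intron of Col1a2, which encodes a chain of type I collagen. It stood at 2.28, 4.76 and 4.88 CPM in control, at 82.3, 84.5 and 42.3 CPM in injury, and at 45.7, 92.5 and 83.6 CPM in HBO. Gm38211 lies in an intron of Col5a2, a chain of type V collagen, and stood at 3.80, 3.89 and 11.2 CPM in control, at 70.2, 62.0 and 55.0 CPM in injury, and at 47.6, 73.5 and 62.7 CPM in HBO. Both lie on their host's strand, so they share the orientation of the collagen pre-messenger RNA.

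Col8a1, a chain of the short-chain collagen of vessel walls, held the one pair of members that overlap each other. One of them (NONMMUT027016.2) stood at 0, 0 and 1.39 CPM in control, at 69.6, 22.5 and 33.3 CPM in injury, and at 27.4, 25.3 and 71.0 CPM in HBO. Injury replicate 1 and HBO replicate 3 were about alike and above the other 4. The member that overlaps it (NONMMUT027018.2), with a ratio of 2.26, stood at 2.28, 4.32 and 1.74 CPM in control, at 21.3, 35.8 and 9.76 CPM in injury, and at 10.2, 50.9 and 14.4 CPM in HBO. There injury replicate 2 and HBO replicate 2 were the high libraries. The member in Col6a3 (NONMMUT078226.1) ran from 0.865 to 3.83 CPM in control and from 16.6 to 45.7 CPM in the injured libraries. The member in Tnc (NONMMUT047639.2), the gene of tenascin-C, ran from 7.22 to 9.76 CPM in control and from 21.8 to 53.7 CPM in the injured libraries.

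Ddr2 encodes a receptor for fibrillar collagen. The member over its exon (NONMMUT003730.2) stood at 23.2, 30.7 and 40.1 CPM in control, at 153, 122 and 98.4 CPM in injury, and at 92.2, 221 and 154 CPM in HBO. The member in Tgfbr2 (NONMMUT071268.2), the type II receptor of TGF-β, stood at 4.56, 3.03 and 5.58 CPM in control, at 24.8, 20.4 and 22.8 CPM in injury, and at 16.5, 27.6 and 26.1 CPM in HBO. A neighbouring transcript in the same gene is the one named above at a ratio of 1.99. Other members of the group lay over Fbln1, Itga2 and Mmp28 and in Adam12 and Itgbl1, with ratios from 2.04 to 6.93.

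A further 9 members lay over 8 genes of the actin cytoskeleton or the membrane next to it, with ratios from 2.02 to 3.03. They were among 25 transcripts at the count minimum over these genes. The member over Palld, the gene of the stress fibre protein palladin, stood at 51.6, 70.0 and 63.1 CPM in control, at 248, 180 and 173 CPM in injury, and at 165, 206 and 190 CPM in HBO. The coefficient of variation over its 6 injured libraries was 15.6%. Members over Itpripl2 and Cep85 were also among the 10 with the highest mean CPM, a ranking that is not per length. They ran from 45.2 to 64.0 and from 33.4 to 45.8 CPM in control, and from 152 to 243 and from 94.8 to 242 CPM in the injured libraries.

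Developmental transcription factors formed a group of 18 members over or nearest to 10 genes, and 9 of the members lay outside coding genes. Over these genes lay 19 transcripts at the count minimum, a count that leaves out transcripts outside coding genes. Their sum was 30.4 to 39.0 CPM in control, 196 to 259 CPM in injury, and 177, 418 and 251 CPM in HBO replicates 1 to 3. Bnc2 encodes basonuclin 2, a zinc finger protein of mesenchyme and fibroblasts. It held 4 members, and 2 more lay 1163 and 5696 bases from it. The member in its intron with the largest ratio, 5.88 (NONMMUT047944.2), stood at 0.759, 0.432 and 1.05 CPM in control, at 14.3, 12.6 and 6.15 CPM in injury, and at 8.42, 18.7 and 9.58 CPM in HBO. Its highest control rested on 3 counts, and the exact counting interval of that ratio ran from 1.70 to 31.3. The other 2 transcripts in Bnc2 at the count minimum had ratios of 1.57 and 1.79.

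The member over Foxc1 (NONMMUT016900.2), a forkhead gene of meninges and vessel mural cells, ran from 1.39 to 1.90 CPM in control and from 7.23 to 11.7 CPM in the injured libraries. The member in Tbx18 (NONMMUT070325.2), a T-box gene of mural cells and fibroblasts, ran from 0 to 0.697 CPM in control and from 4.09 to 13.1 CPM in the injured libraries. Members also lay over Runx2 and Nr2f2, in Eya2, and outside the genes nearest to Foxd1, Foxd2, Zic1 and Zic4. The span of the Runx2 member also overlaps Supt3, on the opposite strand. In HBO against injury, 16 of the 18 had a positive log2 change, beside 82 of all 203 members and 50% of all tested transcripts. In the other groups it was 7 of the 23 leukocyte members, 5 of the 13 matrix members and 3 of the 9 actin members. Several of the 18 lie at the same gene and are not independent, and the groups were formed after the members were seen. These counts of signs are a description and not a test. The median of the 18 was 0.25, with a range from -0.54 to 0.73, and none was called. HBO replicate 2 had the largest sum, and without that library the log2 change of the member near Foxd1 turned from 0.73 to -0.085.

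Mdfic, Pdzrn3 and Gm20388 held 3 members each. Mdfic, which encodes a binder of MyoD family factors and of Piezo channels, had 3 transcripts at the count minimum, and all were members, with ratios of 2.60 to 3.15. Pdzrn3, a ubiquitin ligase gene, held RP23-296N5.4, RP23-296N5.3 and NONMMUT058256.2, with ratios of 2.51 to 5.35, beside 4 more transcripts at the minimum with ratios of 1.30 to 1.95. Gm20388 is annotated as 1 coding gene that reads through several neighbours, with 176 listed transcripts in its span. Of these, 37 met the count minimum, and those that were not members had ratios of 0.066 to 1.08. Its 3 members had ratios of 2.205 to 3.275. Of the 3, 1 lies in an intron of Gm20388 alone, 1 also in Cyba and 1 also over Cdt1. The 203 members formed 202 separate places by overlap, 185 when joined across 1000 bases and 151 when joined across 50 kb.

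Counts over gene lists placed the members as follows. Of the 355 transcripts at the count minimum that lay over or were named for a listed gene, 20 were members. Over all 17190 transcripts at the minimum, 203 were members (1.18%). The scar list of fibroblast and matrix genes held 4 members of 17 such transcripts, and the list of phagocyte oxidase and innate signalling held 6 of 22. The lists for macrophages, the lysosome, cytokines, proliferation, apoptosis and adhesion held 1 each, of 8, 9, 5, 11, 14 and 16. The proliferation member lies over Cdk6, the apoptosis member in Bcl2l11, and the adhesion member over Anxa1.

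No member lay over the lists for neurons (0 of 26 transcripts), synaptic transmission (0 of 47), astrocyte homeostasis (0 of 12), myelin (0 of 7), resident microglia (0 of 6) or endothelium (0 of 15). The same held for proteoglycans and their synthesis (0 of 20, median ratio 0.82), Schwann cells (0 of 6), reactive astrocytes (0 of 2), the interferon response (0 of 2) and sterol synthesis (0 of 6). The list of lymphocytes and neutrophils had no transcript at the minimum. Members were 1.18% of all transcripts at the minimum. At that share a list this short can hold no member, so a count of 0 does not set a list apart. The median ratio of lowest injured to highest control was 0.59 over all 17190 transcripts at the minimum. It was 1.30 over the scar list, 1.501 over the phagocyte oxidase list, 1.55 over the macrophage list, 0.88 over the microglia list and 0.32 over the neuron list. The summed level over the neuron list was 1069 to 1230 CPM in control, 467 to 717 CPM in injury and 525 to 798 CPM in HBO. The myelin list stood at 1033 to 1645 CPM, so genes of both classes were read in every library of what is labelled spinal cord. Transcripts of the scar list that are not members summed to 146 to 239 CPM in control, 2421 to 3114 CPM in injury and 1229 to 4129 CPM in HBO. Transcripts of the microglia list, which has no member, summed to 164 to 218 CPM in control and 218 to 274 CPM in the injured libraries. The part that these cell type lists play in the members' levels was not tested.

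By place, members differed in share from the 17190 transcripts at the count minimum. Those outside coding genes were 39.9% of members and 24.5% of the minimum set, and those inside introns were 34.0% and 50.3%. Members over coding exons made up 11.3% beside 13.3%, and those over untranslated or other exons 14.8% beside 11.97%. The median length was 2320 bases beside 2302, and 85.2% beside 84.8% were unspliced. Of the 81 members outside coding genes, 30 lay in 2 tracts. Their chromosomes, 19 and 13, held 11.8% and 11.3% of members and 3.05% and 3.89% of the minimum set.

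The larger cluster was a tract of 90.9 kb on chromosome 19 (chr19:22042130-22133059), which holds no coding gene. It lies between 5987 and 92157 bases from Trpm3, the gene of a cation channel of the TRP family. It held 36 listed transcripts, of which 21 met the count minimum and 20 were members, 19 of them unspliced. Ratios in the tract ran from 2.50 to 14.7, and together the members covered 55.2% of its bases. Their sum was 3.04, 5.62 and 51.2 CPM in control replicates 1 to 3, 344, 354 and 346 CPM in injury, and 293, 621 and 295 CPM in HBO. Control replicate 3 lay above the other controls, and the injury libraries were close to each other.

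Per kilobase of transcript, the 20 members had a median of 0.355 CPM in control, 6.93 CPM in injury and 7.69 CPM in HBO. Injury levels spread from 3.92 to 9.56 CPM per kb along the tract, so no single transcript carried it. The tract's transcripts are neighbours and are not independent of each other. Members in it were highest in HBO replicate 2 in all 20 cases. Relative to each member's mean over the 6 injured libraries, that library had a median of 1.68, and the other 5 had medians between 0.74 and 0.93.

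**Figure D3:**
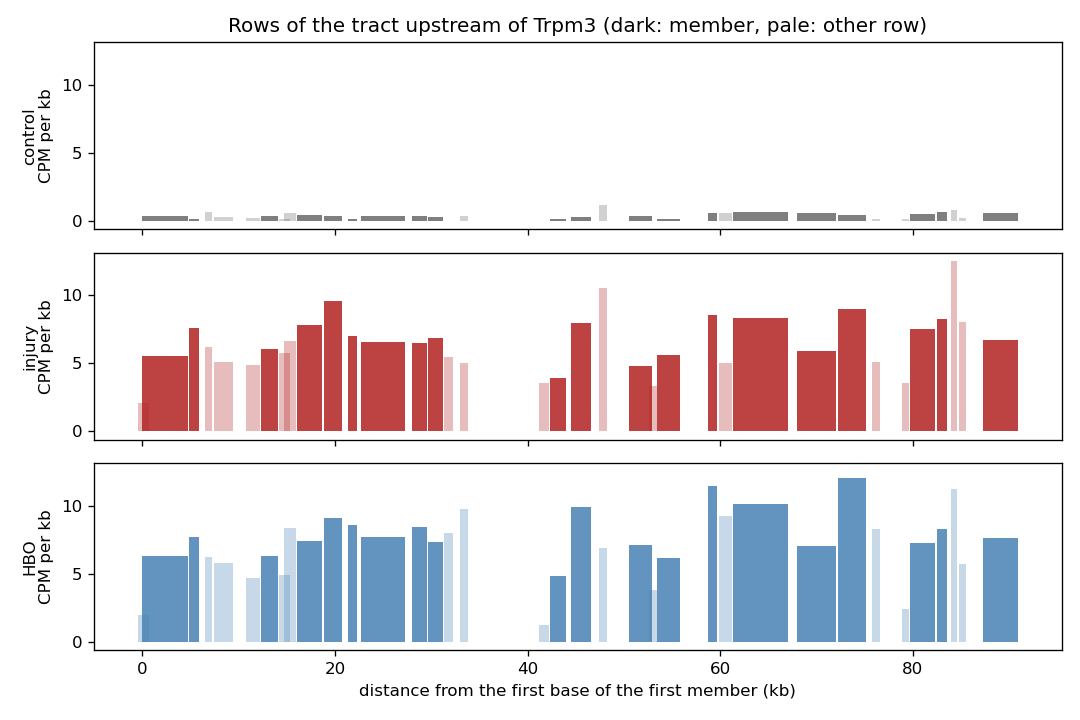
Bars show the 36 listed transcripts of the chromosome 19 tract at their distance in kb from the first base of the first member, with the group mean in CPM per kb as height. Members are dark and other transcripts pale. Control bars stay low across the whole tract, while injury and HBO bars stand at 3.92 to 12.1 CPM per kb in the members.

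The smaller tract spanned 63.3 kb on chromosome 13 (chr13:12707368-12770698), 20118 to 82039 bases from Prl2c3, which encodes a member of the prolactin family. It held 19 listed transcripts, of which 12 met the count minimum and 10 were members. The members' sum stood at 23.2, 27.2 and 31.0 CPM in control, at 214, 140 and 131 CPM in injury, and at 130, 204 and 182 CPM in HBO. Injury replicate 1 and HBO replicate 2 were high here, with relative levels of 1.24 and 1.26, whereas in the chromosome 19 tract injury replicate 1 was at 0.93. The 173 members outside both tracts had medians of 1.14 in injury replicate 1, 1.20 in HBO replicate 2 and 0.77 in HBO replicate 1.

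Over all 203 members, HBO replicate 2 was the highest library for 98 and injury replicate 1 for 59, and HBO replicate 1 was the lowest for 86. Over the 17190 transcripts at the count minimum, the same 3 libraries had medians of 0.985, 0.885 and 0.983 on this relative scale. The median coefficient of variation over the injured libraries was 29.2% for members, beside 23.1% for the transcripts at the minimum.

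**Figure D4:**
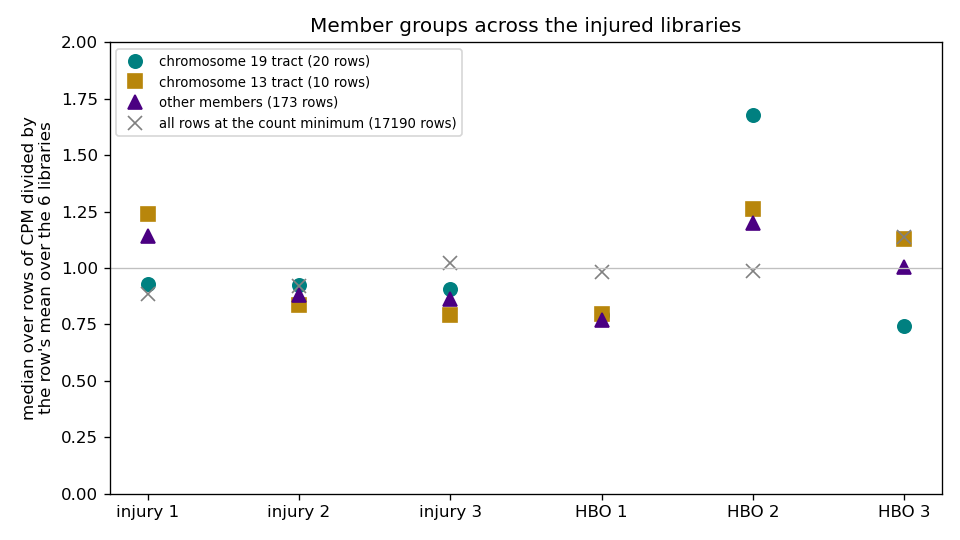
Points show, for each injured library, the median over transcripts of CPM divided by the transcript's mean over the 6 libraries, for 4 sets of transcripts. The chromosome 19 tract stands out at 1.68 in HBO replicate 2, and the other members lie at 1.20 there and at 0.77 in HBO replicate 1.

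In 2 members every control library had 0 counts. NONMMUT068776.2 (chr9:43045840-43050998) lies in an intron of Arhgef12, which encodes a guanine nucleotide exchange factor, and stood at 47.6, 43.9 and 56.8 CPM in injury and at 50.1, 47.0 and 51.4 CPM in HBO. Against a floor of 3 counts in each control library its lowest injured level was at least 33.9-fold higher, and its coefficient of variation of 8.91% was among the 3 lowest of the set. NONMMUT052555.2, over an exon of the RNA-binding protein gene Rbm47, stood at 44.5, 36.1 and 15.9 CPM in injury and at 4.39, 40.8 and 41.4 CPM in HBO. HBO replicate 1 was the low library, and against the same floor it was at least 3.39-fold higher.

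Other members with large ratios were single transcripts. NONMMUT014658.2, over an exon of Snapc1, a subunit of the complex that drives small nuclear RNA genes, stood at 0.759, 1.30 and 0.697 CPM in control, at 38.4, 45.7 and 50.3 CPM in injury, and at 63.3, 57.1 and 47.5 CPM in HBO. Its ratio was 29.6, with an exact counting interval from 9.90 to 146. The transcript near Gm10320 (NONMMUT092104.1) ran from 0 to 0.348 CPM in control and from 6.51 to 29.1 CPM in the injured libraries, a ratio of 18.7 on 1 control count with an interval from 2.95 to 778. The most variable member, over Clgn (NONMMUT066336.2), stood at 7.30, 3.75 and 34.7 CPM in injury and at 47.9, 8.94 and 17.0 CPM in HBO, and did not follow either group. The members near Slc7a15 and in Stard13 were among the steadiest, with coefficients of variation of 9.74% and 7.71%.

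The test of HBO against injury asked whether hyperbaric oxygen moved any of these transcripts on day 7. No member was called at an adjusted p under 0.05, where the fit called 4 of 26850 transcripts (0.0149%). Of the 17190 transcripts at the count minimum, which every member meets, 0 were called. At an unadjusted p under 0.05 there were 6 members (2.96%), 1 higher and 5 lower in HBO. Beside these stood 3.64% of all tested transcripts and 486 of those at the count minimum (2.83%). DESeq2 called no member either and gave 7 at an unadjusted p under 0.05. The median log2 change of the members was -0.05, beside 0.00 over all transcripts, with 82 positive and 121 negative. The change lay within 1 in either direction for 197 of 203, and the median SE was 0.39, so a moderate change of a single member could go undetected with 3 libraries per group.

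The largest decreases were outside coding genes. NONMMUT008425.2, nearest to Ankrd36, stood at 34.0, 14.0 and 20.6 CPM in injury and at 5.49, 9.33 and 9.58 CPM in HBO, against 0.759 to 2.16 CPM in control. The groups did not overlap, with a log2 change of -1.64 (SE 0.41, unadjusted p = 0.00288, adjusted p = 0.99998). The neighbouring transcripts NONMMUT020278.2 and NONMMUT092674.1, nearest to Oxnad1, had log2 changes of -1.60 (SE 0.54) and -1.29 (SE 0.63). Both rested on injury replicate 1, at 80.0 and 112 CPM, beside 19.1 to 40.5 CPM in the other injury libraries and 10.2 to 33.4 CPM in HBO. Without that library the changes were -0.77 and -0.23. NONMMUT089908.1, nearest to Fgfr4, had a change of -1.27 (SE 0.53), again with injury replicate 1 high, at 60.3 CPM beside 14.3 and 18.4 CPM, and of -0.25 without it.

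The largest increase was over Mndal, an interferon-inducible gene of the PYHIN family. The member (NONMMUT003882.2) stood at 2.66, 5.19 and 5.23 CPM in control, at 12.4, 19.8 and 15.9 CPM in injury, and at 21.2, 43.1 and 56.6 CPM in HBO. Every HBO library lay above every injury library, with a log2 change of 1.18 (SE 0.35, unadjusted p = 0.00743, adjusted p = 0.99998). The list of interferon genes held no member and had only 2 transcripts at the count minimum. It summed to 37.3 to 64.2 CPM in control, 40.3 to 76.7 CPM in injury and 64.8 to 357 CPM in HBO. The lowest HBO sum lay within the injury range, and the list was not tested. MSTRG.15682.1, over Gm21188, and the intronic member of Itgbl1, an integrin-related matrix gene, had changes of 0.97 (SE 0.65) and 0.76 (SE 0.55), with HBO replicates 2 and 3 high and HBO replicate 1 within the range of injury or below it. Without HBO replicate 2 the change of the Itgbl1 member was 0.26.

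**Figure D5:**
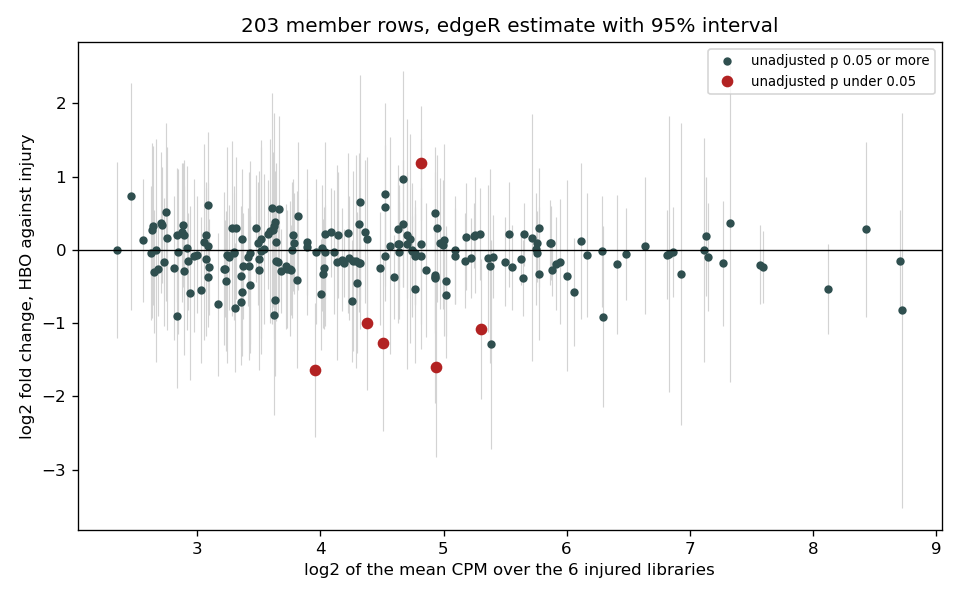
Points show the log2 fold change of HBO against injury for the 203 members over the log2 of their mean CPM in the 6 injured libraries. Bars are 95% intervals derived from the fold change and the F statistic of the edgeR test. The 6 red points had an unadjusted p under 0.05, 5 below 0 and 1 above, and none passed adjustment over the 26850 transcripts tested.

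In promoters of the coding genes under members, 5 motifs were counted. RefSeq windows of 300 bases on GRCm38.p6 were at hand for 75 of the 107 coding genes. Both strands were counted, except for TATAAA, which was read on the gene's strand only. Over the 106 windows of these genes, the E-box CANNTG was found in 69.8%, beside 72.3% of all 32851 windows. The AP-1 letters TGANTCA were found in 5.66% beside 7.81%. The ETS letters GAGGAA were found in 32.1% beside 28.3%, the RUNX letters TGTGGT in 17.9% beside 16.8%, and TATAAA in 11.3% beside 8.32%. A match describes the letters in a window and is not a bound site.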

How the data were processed

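Each of 9 libraries has a table deposited by the authors that gives, per the file headers, a whole-number count and an FPKM value for 69547 long noncoding transcripts. Identifiers came from NONCODE (62343), Ensembl (6736) and an assembly marked MSTRG (468). The submitters' processing notes name HISAT2 and GRCm38; the sources used here do not give its version, the counter or the strand handling. The deposited FPKM values were used for library totals, of which the listed counts made up 17.1% to 19.5%, and as an alternative for the membership rule.

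Members were found by the rule on CPM (count over column total). The members and the gene lists were chosen with earlier results of these data known. Spans were set beside GENCODE M21 without regard to strand; 6656 of 6736 Ensembl identifiers were found there and 6460 had the same span. GC content and end motifs could be read for Ensembl transcripts only.

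HBO against injury was fitted on the whole table of counts, all 9 libraries by group, in R 4.3.3 and edgeR 4.0.16. Low transcripts were dropped by filterByExpr (min.count 10), scaling was TMM, the test was glmQLFTest after glmQLFit, and calls took an adjusted p (Benjamini-Hochberg) under 0.05. edgeR gives no SE for this test. Each SE of a log2 change is its absolute value divided by the square root of the test's F statistic. The 95% intervals take that SE and the t distribution. The fit was tested on simulated data. Named were members with gene symbols, the 10 highest by mean CPM, the 8 largest ratios, those at 0 in every control, the 4 largest HBO changes each way, the threshold neighbours, up to 2 per gene list, the most and least variable, and genes with 3 or more members. Some items that this rule selects are not reported here. Others, chosen after their values were seen, illustrate groups of coding genes that were also formed then. As alternatives, the fit was repeated with DESeq2 1.42.0, RLE scaling, no filter, the 2 groups alone, a replicate block, a minimum log2 change of 1, sums per gene name, leaving out each library, and other settings of the rule. Every pair of replicates differed beyond counting noise, with 8.07 to 23.0 as chi-square over its degrees of freedom. Counting intervals (exact, 95%) and floors of 3 counts cover counting error only.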

Additional observations from a re-analysis of the deposited data

How the results depend on the processing

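No member was called in HBO against injury in any of 16 settings, with a lowest adjusted p of 0.0782. Over all transcripts 4 were called, against 2 without a filter, 2 with a minimum log2 change of 1, 57 by DESeq2, and 2 to 20 when 1 library was left out. With the replicate number as a block 2 were called. Same-numbered libraries deviated with correlations of -0.05 to 0.06, beside -0.09 to 0.13 for differently numbered ones, so no pairing by number was seen. Of 128 recomputed log2 changes of the 8 members with the 4 largest changes each way, none of them called, 127 kept their direction. These members were picked for large changes and every setting reuses the same counts, so a kept direction is not separate support. Without injury replicate 1, NONMMUT020278.2 went from -1.60 to -0.77, NONMMUT092674.1 from -1.29 to -0.23 and NONMMUT089908.1 from -1.27 to -0.25. Without HBO replicate 2, NONMMUT022552.2 went from 0.76 to 0.26. That of NONMMUT090495.1 ran from -0.085 without HBO replicate 2 to 1.02 without HBO replicate 3. The median change of all members was -0.32 without HBO replicate 2 and 0.13 without injury replicate 1. The rule was met by 78 transcripts at a fold of 3, 487 at a fold of 1.5, 68 at a count minimum of 50, and 209 to 370 when 1 library was left out, with 320 without control replicate 2 and 370 without control replicate 3. TMM scaling gave 243, among them 200 members, and moved the median log2 difference of injured from control transcripts from -0.01 to 0.11. The cause was not tested.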
